A study of Drosophila melanogaster with 2 samples.

Results

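The small subunit of the cytosolic ribosome of Drosophila melanogaster is built on proteins whose genes carry the symbol prefix RpS. In the Ensembl annotation BDGP6.54, 38 of the 13945 protein-coding genes on the main chromosome arms (2L, 2R, 3L, 3R, the small chromosome 4, and X) had a symbol of RpS followed by a digit, and these 38 genes are described here. The rule used symbols and positions, with no measured value, but the group was picked for description with earlier results of these data known. The genes sta and Rack1, which code for further proteins of the same subunit under other names, fell outside the symbol rule and are given separately.

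Ribosomal protein genes are among the most strongly expressed genes of growing cells, and many of them in flies are known as Minute genes, in which loss of 1 copy slows development. Their promoters in flies mostly start transcription at a polypyrimidine initiator, the TCT motif, in place of the usual initiator. E2f1 is the activating E2F factor of flies and is best known for driving genes of DNA replication and the G1 to S transition, in a heterodimer with Dp and under the control of the retinoblastoma proteins.

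Chromatin immunoprecipitation with sequencing (ChIP-seq) had been carried out on flies that carry a transgene for E2f1 fused to eGFP, with an antibody against GFP. The material was whole embryos collected over 0 to 24 hours of development, so that every tissue and embryonic stage was mixed in each sample, and the chromatin was sonicated to 200 to 800 bp. There were 2 biological replicates of 1 group and no second group, and the control experiment that the labels name was not used here. The precipitated protein is the tagged fusion and not E2f1 in its native form.

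The deposited files gave, for each replicate and for both replicates together, ranked lists of candidate regions and thresholded sets. An entry has a height, which is a score from the authors' peak calling with no stated unit, a summit position, and an irreproducible discovery rate (IDR), which is lower where the rank of an entry recurs between a pair of inputs. Every thresholded region had an IDR of 0.01 or lower. The conservative set over both replicates held 4439 regions and the larger one 5167, and the sets of replicates 1 and 2 held 3779 and 3280. A gene was called bound in a set when it had a summit at most 500 bp away from 1 or more of its annotated transcription start sites (TSSs). Read counts were not among the values used here, so that the depth behind each height is unknown.

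E2f1-eGFP regions lay at the start of close to 1 in 2 small subunit genes. In the conservative set 18 of the 38 RpS genes (47.4%) were bound, where 17.6% of all protein-coding genes tested were. In replicate 1 alone 19 RpS genes (50%) were bound, beside 15.8% of all coding genes, and in replicate 2 alone 17 (44.7%), beside 13.8%. In the larger set 19 RpS genes were bound, beside 19.7% of all coding genes. The share of RpS genes was thus over 2 times that of coding genes at large in each of the 4 sets.

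The other genes of the ribosome showed the call at different rates. Large subunit genes, with the prefix RpL, were bound in 36 of 54 cases (66.7%) in the conservative set, 34 (63%) in replicate 1 and 30 (55.6%) in replicate 2. Genes for the small subunit of the mitochondrial ribosome (mRpS) were bound in 9 of 26 cases (34.6%), 8 and 5. Of 19 genes for nucleolar and ribosome assembly factors, 6 (31.6%) were bound in the conservative set, 4 in replicate 1 and 5 in replicate 2. Those 6 were Ns2 and pes at heights of 409 and 383.9, Fib at 114.9, Nopp140 at 109.7, RIOK1 at 100.5 and nop5 at 71.96. In the larger set the shares were 50% for RpS, 72.2% for RpL, 34.6% for mRpS and 47.4% for assembly factors. The RpS share lay below that of RpL genes in each of the 4 sets and above those of the other 2 groups, with assembly factors close to RpS genes in the larger set.

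**Figure D1:**
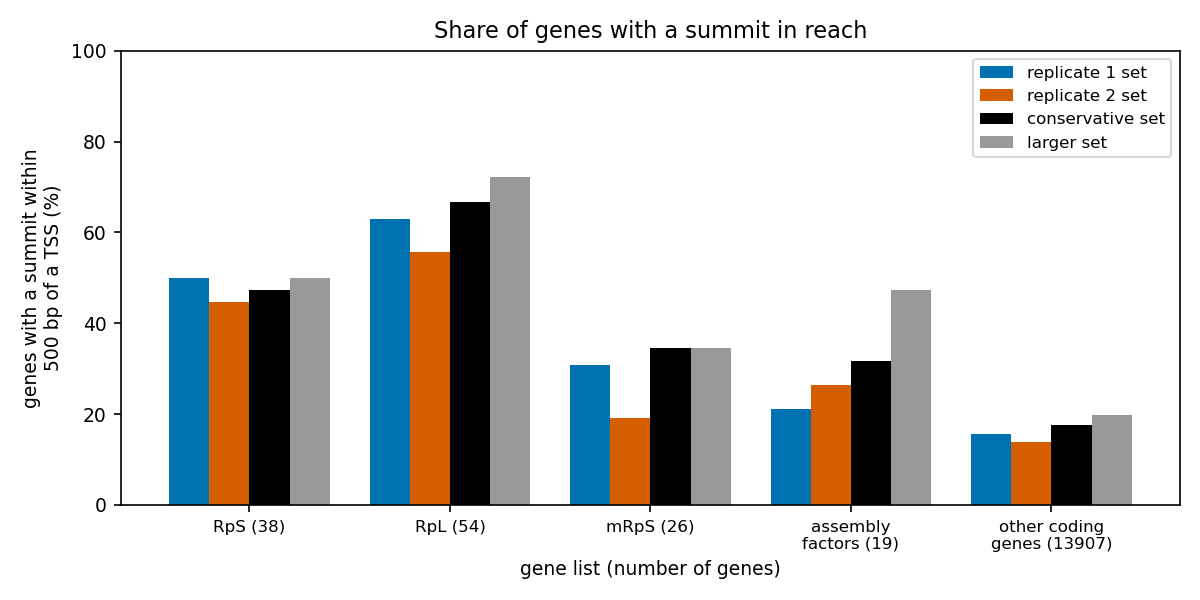
Percentage of genes with an E2f1-eGFP summit within 500 bp of a TSS (vertical axis) by gene group (horizontal axis, number of genes in brackets), with 1 bar per thresholded set. The RpS bars stood between 44.7% and 50% and lay above the bars of the 13907 other coding genes in each of the 4 sets.

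The 4 sets all come from the same 2 replicates, so that calls shared between them are not independent. Of the 22 RpS genes bound in at least 1 set, 14 were bound in all 4 sets and 8 in some of them, and 16 RpS genes were bound in none. The matching shares of all coding genes were not counted for these patterns. Both replicate sets held 15 RpS genes, against 11.4% of all coding genes, replicate 1 alone held another 4, and replicate 2 alone another 2. Over the 30 RpS genes with a candidate entry in each replicate's ranked list, log2 heights correlated between replicates with a Pearson coefficient of 0.727, and the Spearman coefficient was 0.718. These points are genes from the same pair of libraries, and the heights were higher in replicate 1 for 22 of the 30, with a median ratio of 1.36. Other coding genes outside both ribosomal protein groups had a Pearson coefficient of 0.822 and a Spearman coefficient of 0.753, and 4679 of 6335 were higher in replicate 1, with a median ratio of 1.31, so that the lead of replicate 1 was shared by genes at large.

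Heights at bound RpS genes were close to those of other bound genes in the conservative set and replicate 1, and lower in replicate 2. The median over the 18 bound genes was 137.7 in the conservative set, with a highest value of 385.5, against 149.3 for RpL genes and 139 for coding genes outside both groups. In replicate 1 the RpS median was 88.25, against 97.29 for RpL genes and 86.96 for the other coding genes. In replicate 2 it was 53.66, against 63.07 and 78.58. These differences between medians were not tested. Of the 18 genes, 5 lay at or above 187.9, the upper quartile of region heights, and 4 lay below the median region height of 112.6. The remaining bound RpS genes lay between these values.

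The highest region belonged to RpS27, which codes for a zinc-finger protein of the subunit body. It spanned 3R:25247416-25247638, its height was 385.5 in the conservative set, and the 2 replicates gave 196.3 and 178.4. The next was RpS20, a protein of the subunit head, at 280, with 137.8 in replicate 1 and 142.6 in replicate 2. RpS28b, a small head protein near the mRNA exit channel, had 268.1, with 150.2 and 117 in replicates 1 and 2. RpS4, a body protein, had 228.7, with 132.2 and 97.4. All 4 had the lowest IDR the lists give, 1e-05, and the replicates of each were within a factor of 1.5 of each other.

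The next 4 genes in height were more uneven between replicates. RpS21, a body protein, had a height of 210.6 in the conservative set, with 88.25 in replicate 1 and 127.9 in replicate 2. RpS25, a head protein that is known for its role in internal ribosome entry, had 185.1, with 134.5 and 51.33 in replicates 1 and 2. RpS16, a head protein whose tail reaches the peptidyl tRNA site, had 160.9 at 2R:22605920-22606263, with 106.1 and 53.66. RpS18, a head protein at a bridge to the large subunit, had 151.3, with 109.5 and 42.53. RpS25, RpS16 and RpS18 were about 2 times higher or more in replicate 1, whereas RpS21 was higher in replicate 2.

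Among bound genes of low height, some were missed in the set of 1 replicate. RpS12, a head protein that flies need for the competition between wild type and Minute cells, had 98.29 in the conservative set, with 61.39 in replicate 1 and 44.96 in replicate 2. RpS5a, a head protein at the mRNA exit, had 94.9. Its set call came from replicate 2 at 56.63, while its entry in replicate 1 had a height of 39.1 and an IDR of 0.0477. RpS14b, a body protein of the platform, had 85.87 with an IDR of 0.00652, was bound in replicate 1 at 55.26, and had an entry of 24.58 with an IDR of 0.0623 in replicate 2.

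A further 6 bound genes had heights of 116 to 148 in the conservative set. They were RpS10b, a head protein, at 148, RpS7, a body protein, at 127.4, RpS27A, which is made as a fusion with ubiquitin, at 126.4, RpS19a, whose human counterpart is mutated in Diamond-Blackfan anaemia, at 124.1, RpS29, a zinc-finger protein of the head, at 122.7, and RpS23, a protein of the decoding centre, at 116. Of these, RpS27A was in the set of replicate 1 at 90.9 but not in that of replicate 2, where its entry had a height of 43.46 and an IDR of 0.818. The other 5 were in both replicate sets.

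**Figure D2:**
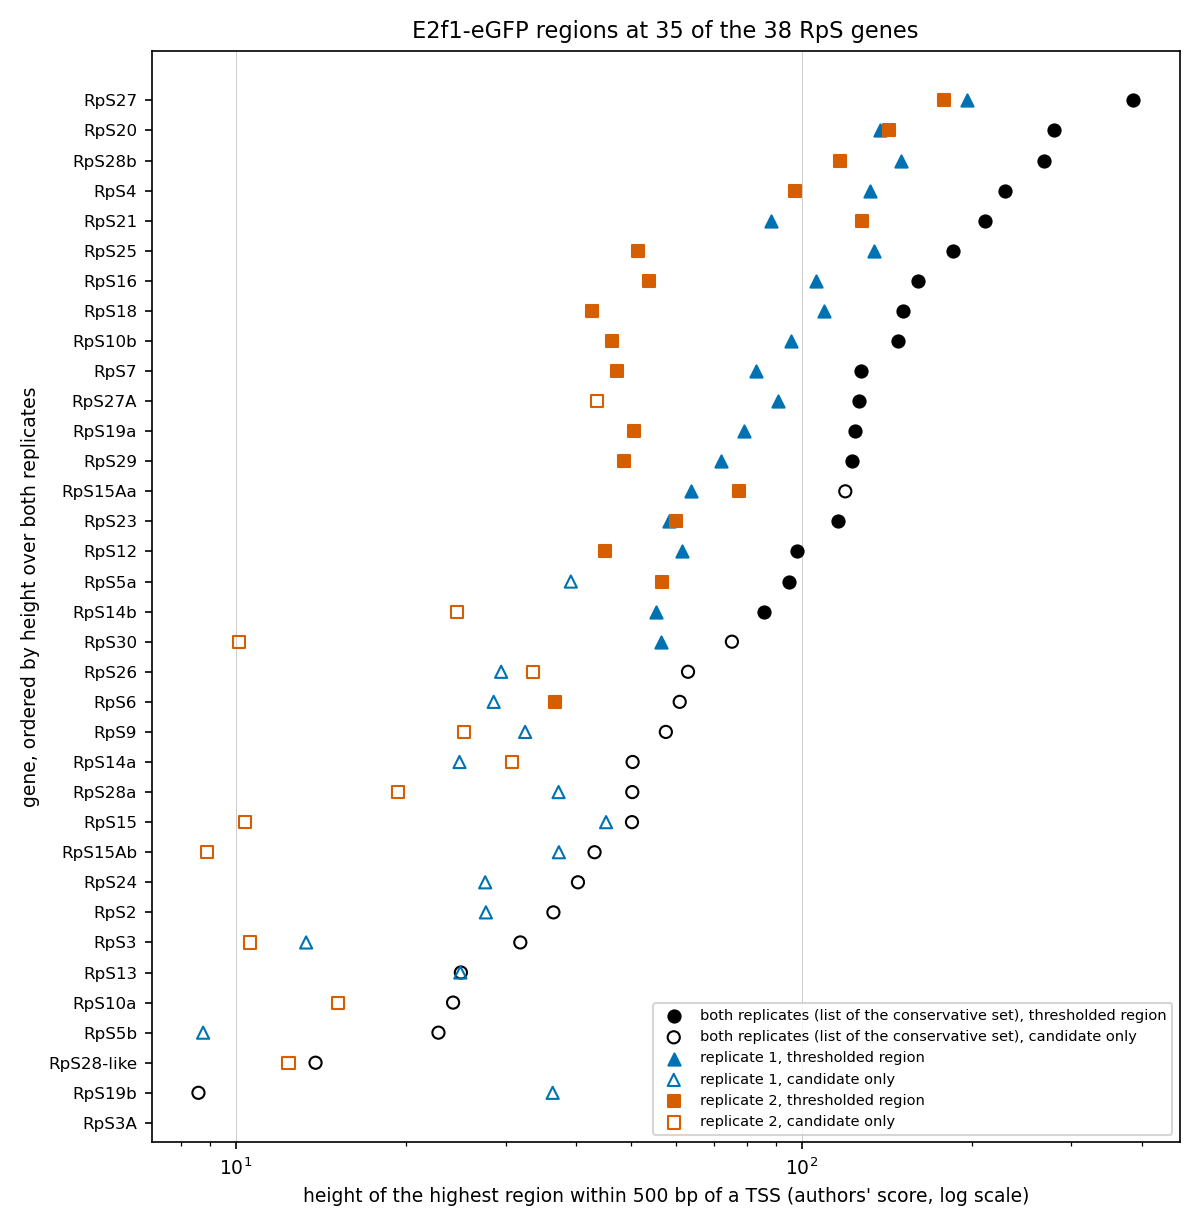
Height of the highest E2f1-eGFP entry near 35 of the 38 RpS genes (authors' score, log scale on the horizontal axis, 1 gene per line) in replicates 1 and 2 and in the conservative list, with filled symbols for thresholded regions and open symbols for candidate entries that missed the threshold. RpS27 was highest at 385.5 and RpS3A had no entry.

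The bases before the start of 6 of the 18 bound genes show where the summits fell. Each line gives the 80 bases before the most upstream TSS on the gene's own strand, 5′ to 3′, from the RefSeq assembly of the build the files use (dm6), and the capitals mark the 11 bases centred on the summit of the conservative set, cut at the TSS where the summit lay closer to it. The stretches of RpS27, at chr3R:25247515-25247594 on the minus strand, and of RpS28b, RpS4, RpS21, RpS10b and RpS19a, at chrX:9554543-9554622, chr3L:13041676-13041755, chr2L:2855990-2856069, chrX:19597951-19598030 and chrX:16637814-16637893 on the plus strand, are shown because the first 4 are the highest regions with a summit nearest their own gene's TSS and RpS28b, RpS10b and RpS19a have related copies that were not bound.
RpS27: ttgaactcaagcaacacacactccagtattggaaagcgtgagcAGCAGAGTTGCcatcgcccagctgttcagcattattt
RpS28b: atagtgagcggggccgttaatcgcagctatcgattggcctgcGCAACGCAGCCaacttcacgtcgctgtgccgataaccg
RpS4: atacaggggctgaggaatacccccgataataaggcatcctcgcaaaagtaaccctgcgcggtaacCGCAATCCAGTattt
RpS21: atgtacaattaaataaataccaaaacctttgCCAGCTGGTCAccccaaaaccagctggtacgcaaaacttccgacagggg
RpS10b: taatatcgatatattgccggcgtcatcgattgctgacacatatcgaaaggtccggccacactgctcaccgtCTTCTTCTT
RpS19a: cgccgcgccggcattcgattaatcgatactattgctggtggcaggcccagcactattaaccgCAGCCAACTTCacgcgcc

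The summits of bound RpS genes lay almost at an annotated TSS. Their median position was 18 bp upstream of the nearest annotated start of the gene, written -18, with quartiles of -41.75 and -6.25 and a range of -183 to 19. Within 50 bp of a TSS lay 15 of 18 summits (83.3%), against 23 of 36 for RpL genes (63.9%) and 12.6% for coding genes outside both groups, whose median was -136. Summits at mRpS genes had a median of -135 and none of the 9 was within 50 bp. In replicate 1 the RpS median was -23, with 68.4% within 50 bp, against a median of -28 and 67.6% for RpL genes and 15.1% within 50 bp for the other genes. In replicate 2 it was -15, with 76.5%, against -45.5 and 56.7% for RpL genes and 8.92% for the other genes. The position near an annotated TSS thus held in each replicate's own set, while in replicate 1 RpS and RpL genes hardly differed in it. Distances were taken to the nearest of a gene's TSSs, of which RpS genes had a median of 1.5 and other coding genes 1.0. At RpS16 the nearest TSS was not the canonical one, since the summit was at 2R:22606092 and the canonical TSS at 22605745. What the choice of TSS added to the nearness was not tested.

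The exceptions among the 18 were RpS20, RpS5a and RpS27A. The summit at RpS20, 183 bp upstream of its start, was the farthest inside the 500 bp limit and lay nearer, at 150 bp, to the start of CG17271, a gene transcribed away from it. The larger set and replicate 2 had the same summit, whereas in replicate 1 it was at -127 and nearest to RpS20 itself. The summit at RpS5a lay at -86 and that at RpS27A at -79, and it was equally close to a TSS of Ip259. On the other side of the limit, the nearest summits to unbound genes were 895 bp from RpS19b and 1143 bp from RpS14a, and the second of these was the summit of RpS14b. In the conservative set no RpS gene had its nearest summit between 183 and 895 bp from a TSS, whereas the larger set had nearest summits at 504 bp from RpS6 and 554 bp from RpS28a, and replicate 1 at 550 bp from RpS28a and 817 bp from RpS28-like. No conservative summit lay within an RpS gene beyond 500 bp of its TSSs.

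**Figure D3:**
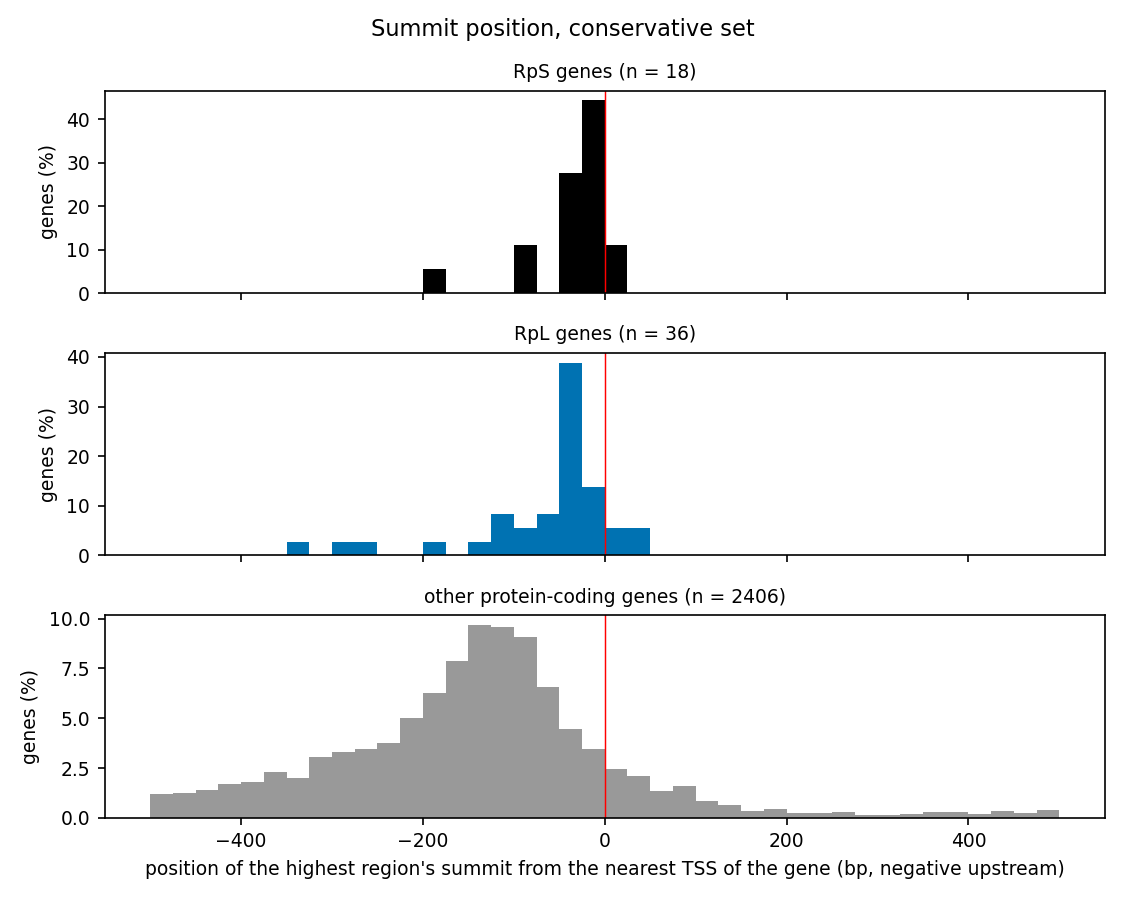
Signed distance in bp from the summit to the nearest TSS of the gene (negative upstream) for bound genes of the conservative set, with 1 panel each for RpS, RpL and other coding genes and bars for the percentage of genes at each distance on a vertical scale of its own. RpS summits gathered close to the TSS with a median of -18, against -136 for the other genes.

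The sequence at the summits had a higher median GC content at RpS genes than at other bound coding genes as a whole. In replicate 1 the RpS median was the same as that of other coding genes with a summit within 50 bp of the TSS. The RpS genes were not limited to that distance, which 15 of 18 summits met in the conservative set and 13 of 19 in replicate 1. In the conservative set, over the 101 bases centred on the summit, the median GC content was 50% at RpS genes, with a range of 23.8% at RpS20 to 59.4% at RpS5a, against 45.05% at RpL genes, 26.73% at mRpS genes and 31.68% at other coding genes. Other coding genes whose summit lay within 50 bp of the TSS had a median of 44.55% over the 285 regions of 302 genes. In replicate 1 the RpS median was 45.54%, against 44.55% at RpL genes, 33.66% at other coding genes and 45.54% at those with a summit within 50 bp. In replicate 2 it was 52.48%, against 46.04%, 29.7% and 39.6% in the same groups. Over 401 bases the conservative medians were 40.4% for RpS and 37.91% for other coding genes, and over the whole promoter, bound or not, RpS genes had 37.7% against 38%. Distance to the TSS moved with GC content, and its part in the difference was not tested.

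**Figure D4:**
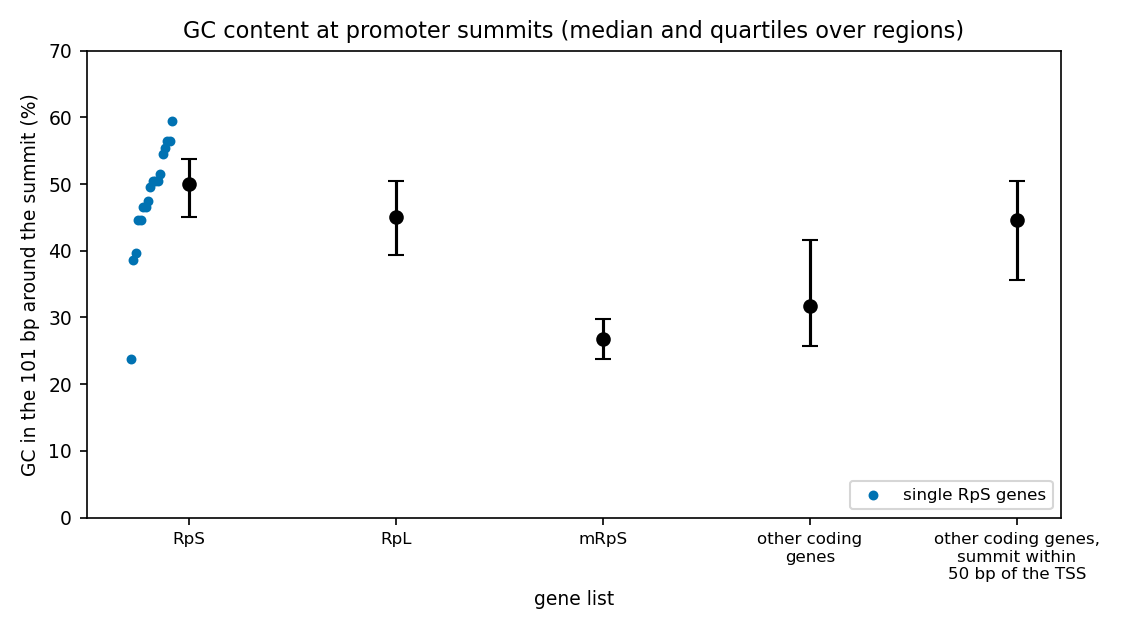
GC content in percent over the 101 bases centred on each summit of the conservative set, by gene group, with black points for the median over regions, bars for the quartiles and blue points for single RpS genes. The RpS median was 50%, against 44.55% for other coding genes with a summit within 50 bp of the TSS and 31.68% for all other coding genes.

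The summit windows held few matches to the E2F consensus, which was searched on both strands as TTGGCGC or TTGCCGC or TTCGCGC or TTCCCGC. Within 100 bp of the conservative summits it occurred at 2 of the 18 RpS regions (11.1%), and at 11.1% of the 1912 other promoter regions. The 2 were RpS16, with TTCGCGC centred 7 bp from the summit, and RpS7, with TTCGCGC centred 2 bp from it. In the regions of replicate 1 the count was 6 of 19 (31.6%), against 13.6% of other promoter regions, and in those of replicate 2 it was 2 of 17 (11.8%), against 8.86%. The share of RpS regions with the consensus was thus near that of other promoter regions in the conservative set and in replicate 2 with this window. Within 50 bp the shares were 11.1% and 5.81% in the conservative set and 11.8% and 4.33% in replicate 2, from 2 RpS regions each. In replicate 1 they were 15.8% and 7.97%, from 3 RpS regions. Within 200 bp the shares were 33.3% and 23.1% in the conservative set, 42.1% and 24.5% in replicate 1, and 23.5% and 20.1% in replicate 2. A match is only a run of letters and not a measured site.

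The DNA replication-related element (DRE), TATCGATA, which is the sequence read by the factor DREF at many growth and replication genes of flies, was more frequent. It lay within 100 bp of the summit at 5 of 18 RpS regions (27.8%), against 7.11% of other promoter regions. In replicate 1 the shares were 26.3% and 6.74%, and in replicate 2 they were 41.2% and 5.86%. It is shown at these 5 genes in windows of 30 bases, 5′ to 3′ on the gene's strand, with motif letters in capitals. They lie at chrX:19597943-19597972 for RpS10b, chr3L:13023300-13023329 for RpS12 and chr3R:9778046-9778075 for RpS29 on the plus strand, and at chr3R:11216328-11216357 for RpS25 and chr3R:30208999-30209028 for RpS7 on the minus strand. The RpS7 window holds the DRE and the E2F consensus TTCGCGC.
RpS10b: tcttaagataaTATCGATAtattgccggcg
RpS12: ctctgcgaaacTATCGATAtttgtaccaat
RpS25: ccaccaccaacTATCGATAggcaggcgagc
RpS29: atcgtggaaaaTATCGATActgccaccccc
RpS7: gTATCGATAgtatcgcacaacgTTCGCGCg

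Promoters, taken as 250 bases before to 50 bases after the canonical TSS, were then compared for bound and unbound RpS genes together. The TCT initiator, scored on the gene's strand as TCTTTT or TCTTTC or CCTTTT or CCTTTC with its second base within 5 bp of the TSS, was present in 16 of 38 RpS promoters (42.1%), against 1.34% of other coding promoters, and it was found in 6 of 18 bound and 10 of 20 unbound RpS genes. With that base allowed from 5 bp before to 20 bp after the TSS, a window chosen after seeing the data, it was present in 24 RpS promoters (63.2%), against 3.46%, in 12 bound and 12 unbound genes. The DRE was present in 13 RpS promoters (34.2%), against 8.87%, in 6 bound and 7 unbound genes. The E2F consensus was present in 3 RpS promoters (7.89%), against 14.3%, among them those of RpS7 and RpS29, which were bound. These windows can differ from the summit windows. At RpS16 the summit lay at a TSS downstream of the canonical one. Its E2F match near the summit thus fell outside the promoter window, while a DRE at -74 from the canonical TSS was counted. The TCT initiator and the DRE were thus found on both sides of the call.

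Initiators with a TCT match are shown here for 5 of the 16 genes that have one, to let the letters be seen at genes with and without a conservative call. Each line gives 25 bases, from 15 before to 9 after the canonical TSS, 5′ to 3′ on the gene's strand, with the TCT match in capitals. RpS21 (chr2L:2856096-2856120, plus strand), RpS27A (chr2L:10408337-10408361, plus strand) and RpS25 (chr3R:11216278-11216302, minus strand) were bound in the conservative set. RpS15Aa (chrX:13337629-13337653, minus strand) and RpS3 (chr3R:23358797-23358821, plus strand), a protein of the mRNA entry channel, were not, although RpS15Aa was in the other 3 sets.
RpS21: acgtccagctgtcattTCTTTCtct
RpS27A: cacgctgtgtgtgtgtTCTTTCttt
RpS25: ggccgtttccgccctccaTCTTTCt
RpS15Aa: tttttccttccgtttcCCTTTCttt
RpS3: gcgcgggcacactggccTCTTTCtt

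The remaining motifs each occurred in at most 4 RpS promoters. GAGAG, the repeat read by GAGA factor, occurred in 4 of 38 (10.5%), against 30.3% of other coding promoters, and all 4, among them RpS29, RpS4 and RpS5a, were bound. Within 100 bp of the conservative summits, however, GAGAG occurred at only 1 of 18 RpS regions, against 20.3% of other promoter regions. The core of motif 1, GGTCACAC, occurred in 4 (10.5%), against 7.53%, and the TATA box TATAAA and the E-box CACGTG in none, against 7.22% and 4.27%. Among coding genes outside the ribosomal protein groups, 12.2% of those with the TCT initiator were bound, against 17.4% of those without. With the DRE these shares were 26.7% and 16.5%, with the core of motif 1 27.6% and 16.5%, and with the E2F consensus 20.3% and 16.9%. For GAGAG both shares were 17.4%. With the E-box they were 21.6% and 17.2%, and with the TATA box 5.28% and 18.3%.

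**Figure D5:**
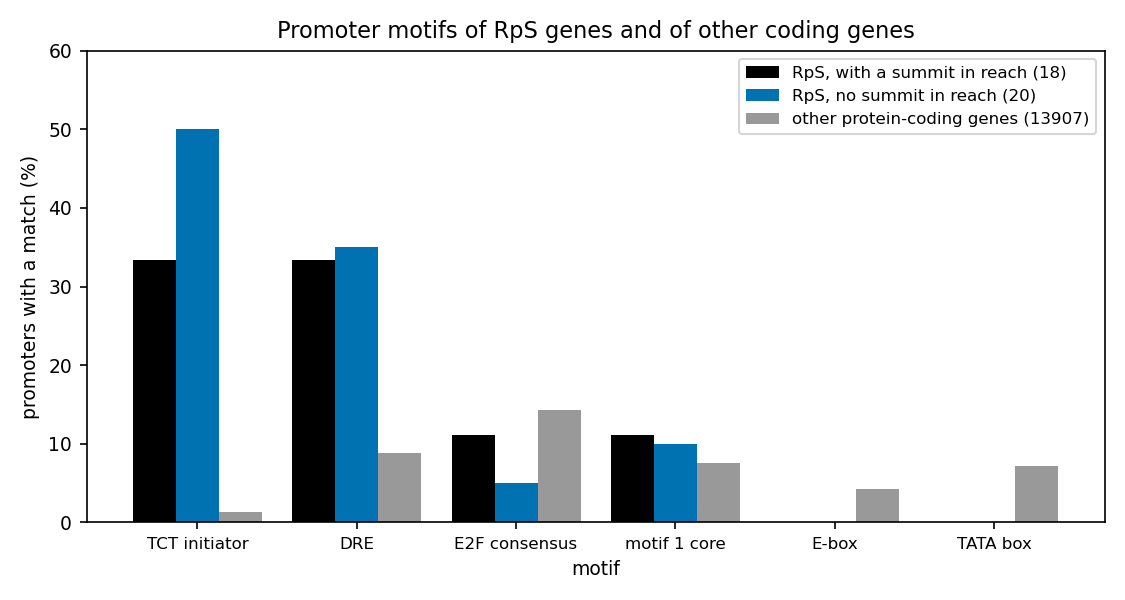
Percentage of promoters (250 bases before to 50 after the canonical TSS) that hold each motif, for the 18 bound RpS, 20 unbound RpS and 13907 other coding genes. The bars for the TCT initiator and the DRE were above those of other coding genes for bound and for unbound RpS genes, with 1.34% and 8.87% of other coding promoters holding a match.

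Nearly every RpS gene had a candidate entry, whatever its IDR, within the same distance. In the ranked list of the conservative set 37 of 38 had one, where 74.5% of all coding genes did, and in that of the larger set 35 did, where 72.3% of coding genes did. In the lists of replicates 1 and 2 the counts were 35 and 32, beside 65.4% and 56.9% of coding genes. Of the 20 RpS genes not bound in the conservative set, 19 had an entry. Their median height in the conservative list was 50.15, against 28.55 for other unbound coding genes and 53.01 for unbound RpL genes. In the list of replicate 1 the unbound RpS genes with an entry had a median of 30.95, against 22.6, and in that of replicate 2 19.33, against 15.9. The exception was RpS3A, a body protein and the only RpS gene on chromosome 4, which had no candidate entry in any of the 4 lists. Of the 80 coding genes on chromosome 4, 3 had an entry in the conservative list.

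Some unbound genes were close to the threshold in the conservative list. RpS9, a body protein, had a height of 57.56 and an IDR of 0.0136, and RpS26, a protein at the mRNA exit, had 63 and 0.0151. RpS14b, inside the limit, had 85.87 and 0.00652. Nearness to the threshold varied by list. RpS9 had an IDR of 0.0178 in the larger set's list, and 0.658 and 0.681 in those of replicates 1 and 2. RpS26 had 0.758 in the larger set's list, and 0.0147 and 0.0149 in those of replicates 1 and 2.

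Some unbound genes were in another set. RpS15Aa, a body protein, was in the larger set at 119.5, in replicate 1 at 63.85 and in replicate 2 at 77.52, although its IDR in the conservative list was 0.785. RpS30, made as a fusion with a ubiquitin-like protein, was in the larger set at 75.32 and in replicate 1 at 56.4. RpS6, the substrate of S6 kinase, was in replicate 2 only, at 36.72. The genes bound in none of the 4 sets included RpS2, RpS3, RpS3A, RpS5b, RpS9, RpS10a, RpS13, RpS14a, RpS15, RpS15Ab, RpS19b, RpS24, RpS26, RpS28a and RpS28-like.

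The position of the protein in the subunit can be set beside the calls. Head proteins were bound in 12 of 19 cases (63.2%) in the conservative set, 10 in replicate 1 and 10 in replicate 2. Body proteins were bound in 6 of 19 cases (31.6%), 9 and 7. The lead of head proteins was 6 genes in the conservative set, 1 in replicate 1 and 3 in replicate 2, and the head and body lists were drawn up for this description. The 2 further small subunit genes were Rack1, a scaffold protein of the head, at 131.9 with 77.27 and 59.09 in replicates 1 and 2 and a summit at -32, and sta, the body protein uS2, which was absent from the conservative set and had 92.59 in the larger set and 81.32 in replicate 1.

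Copies of the same protein gene differed in their calls. In 5 pairs 1 copy was bound and the other in none of the 4 sets: RpS5a but not RpS5b, RpS10b but not RpS10a, RpS14b but not RpS14a, RpS19a but not RpS19b, and RpS28b but not RpS28a or RpS28-like. For the pair of RpS15Aa and RpS15Ab, RpS15Aa was in 3 sets and RpS15Ab in none. RpS5b and RpS19b are known for expression in the germ line of flies. Coding sequences of RpS14a and RpS14b were 97.8% identical and those of RpS15Aa and RpS15Ab 98.2%, whereas their promoters were 53.6% and 51.7% identical. Among all copies 5 of 13 genes were bound, against 13 of 25 single-copy genes. Promoter identity over the pairs of copies was 49% to 53.6%, taken from alignments with gaps. Promoters of unrelated genes were not aligned, so these values do not show how much of the promoters the copies share. How reads with several matches were placed was not stated in the labels, and its part in the calls was not tested.

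Neighbouring and hosted genes were counted as well. A divergent coding TSS within 500 bp was present at 14 of 38 RpS genes (36.8%), and 8 of the 14 were bound, against 10 of the other 24. In other coding genes 25.3% were divergent, of which 33.8% were bound, against 12% of those without. Small nucleolar RNA (snoRNA) genes, which sit in introns and guide the modification of ribosomal RNA, numbered 41 in 12 RpS genes, with 14 in RpS5a, 7 in RpS7 and 5 in RpS16. Of those 12 hosts 7 were bound, against 11 of the other 26. Genes with 2 or more TSSs were bound in 12 of 19 cases and those with 1 TSS in 6 of 19. With the canonical TSS alone 18 RpS genes were bound, as with all TSSs, beside 15.4% of all coding genes. The splits by snoRNA genes and by number of TSSs were not made for other coding genes. Whether they are particular to RpS genes is thus not known.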

How the data were processed

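Whole-embryo E2f1-eGFP ChIP-seq was analysed from the deposited region lists, 4 ranked lists and 4 thresholded sets on dm6. Heights are scores the authors deposited, and q-like values and IDR are deposited as -log10 values, with a ceiling of 5 for IDR. The sources used here name no aligner, peak caller or depth, and not the inputs paired for a replicate's list. Per the submitters' file notes, the peak files derive from the IP alignments and a shared further file.

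Annotation was Ensembl BDGP6.54 (release 115), and bases were read from the matching RefSeq genome. A gene was called bound with a summit within 500 bp of any TSS, and its highest region gave its height. Motifs were exact matches on both strands, except TCT and TATA, scored on the gene's strand, with TATA between -40 and -20. The scripts were tested on simulated data. Named were the 8 highest and 4 lowest bound genes, and unbound, discordant, paralogous and border cases, except a few genes that are counted but not reported here by name. The members and gene lists were chosen with earlier results of these data known, so counts are descriptions without a test. Alternatives were stricter limits, other distances, each replicate alone and other windows. Tools were Biopython 1.88, matplotlib 3.10.9, scipy 1.17.1, pandas 2.3.3, numpy 2.4.6 and Python 3.11.15.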

Additional observations from a re-analysis of the deposited data

How the results depend on the processing

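Of 69 alternative values, 14 moved and 55 stayed within the limits used. A reversal of sign could occur only for the median summit position, where there were 0. For the share of coding genes and the 2 medians the limit was the standard deviation of the 2 single-replicate values, which were also among the alternatives. For a count the limit was 1.5 times. Within those limits the RpS promoters with a TCT initiator still went up to 24, against 16, in the wider window, and the RpS regions with a DRE to 7, against 5, in the larger set, in replicate 2 and with the inner letters of the DRE. The number of bound RpS genes stayed between 14, when conservative calls also had to be in both replicate sets, and 19, and the RpS share was 2.42 to 3.83 times that of coding genes. The share of coding genes was 19.75% in the larger set, 13.84% to 15.84% with 1 replicate alone, 12.1% at an IDR of 0.001, 12.36% within 200 bp, 20.64% within 1000 bp, 15.4% with canonical TSSs, 13.11% with the nearest coding TSS, 11.32% for conservative calls also in both replicate sets and 15.77% at a q-like value of 0.05 or lower, the last chosen after seeing the data. The median RpS height was 53.66 to 88.25 with 1 replicate alone. The count of RpS regions with the E2F consensus was 2 to 6 with 1 replicate alone. It was 6 of 18 (33.3%) with windows of 200 bp, against 23.1% of other promoter regions. No paired analysis was possible because there was only 1 group. Depth is unknown, so a gene not called may lie below what these libraries could detect.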

Other observations

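RpS15Aa was in both replicate sets and the larger set but not in the conservative one. Its entry in the conservative list paired a first input of height 4.213 with a second of 77.52, although the set of replicate 1 also held a region of 63.85 there. Of 1587 coding genes in both replicate sets, 16 were not in the conservative set, and 14 of the 16 were in the larger set. Among 2493 larger-set regions that overlapped both replicate sets, 59 were not in the conservative set, and 38 of those had an input height less than 0.2 times that of an overlapping region of the same replicate, against 2 of 2434 in the conservative set. Why the entries were paired this way was not tested.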
